A study of Mus musculus with 19 samples.

Results

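The comparison described here set cerebral microvessels of mice exposed to cigarette smoke against those of mice kept in room air, using the 4 libraries titled smoke and the 4 titled Room-air, 8 of the 19 libraries of the series. Members were chosen by title alone. All were polyadenylated RNA from male C57BL/6 mice, 7 weeks old when bought and kept under a 12-hour light cycle, sequenced as 80 nt single-end, strand-specific reads. A further unexposed group of 4 libraries, titled air, carries the same room air treatment label. No label ties either unexposed group to smoke, so values of the air group are set beside many of the results. The labels give no dose, duration or product of the smoke, no hour or day of collection, and no number of animals behind a library, and the vessels were not sorted into cell types. The p-values therefore measure only the spread between these libraries.

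Brain microvessels are built of endothelial cells sealed by tight junctions, wrapped by pericytes and astrocyte endfeet, and they carry their own transporters, such as the glucose carrier Slc2a1. These cells hold glucocorticoid receptors, through which corticosterone raises a recognised group of target genes, and a circadian clock in which Arntl and Clock drive the repressors Per and Cry and the output factor Dbp. Cigarette smoke contains ligands of the aryl hydrocarbon receptor, which induces Cyp1a1 and Cyp1b1, and oxidants that act on NRF2, the regulator of antioxidant genes.

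The smoke libraries held 7939180 to 12607538 counts and the Room-air libraries 25266790 to 30185056, so depth and group ran together. The air libraries, at 9761373 to 13490373, were close to smoke in depth. In the smoke and Room-air libraries 25765 genes had a count and 16196 passed the filter on low counts. On the first principal component, which held 46.4% of the variance, Room-air lay at −29.36 to −15.47, while smoke 1, 2 and 4 lay at 14.66, 48.91 and 37.13. Smoke 3 lay at −20.01, among the Room-air libraries. Endothelial markers were present in all libraries, with a summed level of 3819 to 4820 CPM (a gene's counts scaled to a common library total) in smoke, 3974 to 5500 in Room-air and 2076 to 3581 in air. None of the 24 endothelial markers was at 0. Other brain cells were in the preparations as well. The 14 markers of choroid plexus and ependyma, led by the transthyretin gene Ttr, summed to 1792 to 26680 CPM in smoke (median 8151), 17120 to 24750 in Room-air and 3759 to 25070 in air. Ttr itself was highest among the smoke libraries in smoke 3, at 24590 CPM, and lowest in smoke 4, at 1668. The part of choroid tissue in the results below was not tested beyond a fit with these markers as a covariate. In bulk vessels, fewer cells of a type and less RNA per cell cannot be told apart.

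Of 16196 genes tested, 166 (1.02%) differed between smoke and Room-air at an adjusted p under 0.05 (edgeR quasi-likelihood test, Benjamini-Hochberg). Of these, 50 (0.309%) were higher in smoke and 116 (0.716%) lower, and the median absolute log2 fold change among them was 0.83. At an unadjusted p under 0.05 the count was 3129 (19.3%). DESeq2's Wald test called 942 genes, 516 higher and 426 lower, among them 162 of the 166, so the larger number of falls was not common to both tools. In edgeR falls outnumbered rises with other normalisations, other filters and each library left out. They did not with 12 libraries in the fit (254 higher, 223 lower), 19 libraries (586 and 441) or neuron markers as a covariate (426 and 385). In the fit of 8 libraries the median log2 fold change over all genes was 0.0031. The 4 libraries of smoke lay entirely above the 4 of Room-air in 974 genes (6.01%) and entirely below in 867 (5.35%). The count rested on single libraries. Without smoke 3 it rose to 1930 of 16856 genes, 899 higher (5.33%) and 1031 lower (6.12%), and all 166 genes were among them. Without smoke 1 it dropped to 31.

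**Figure D1:**
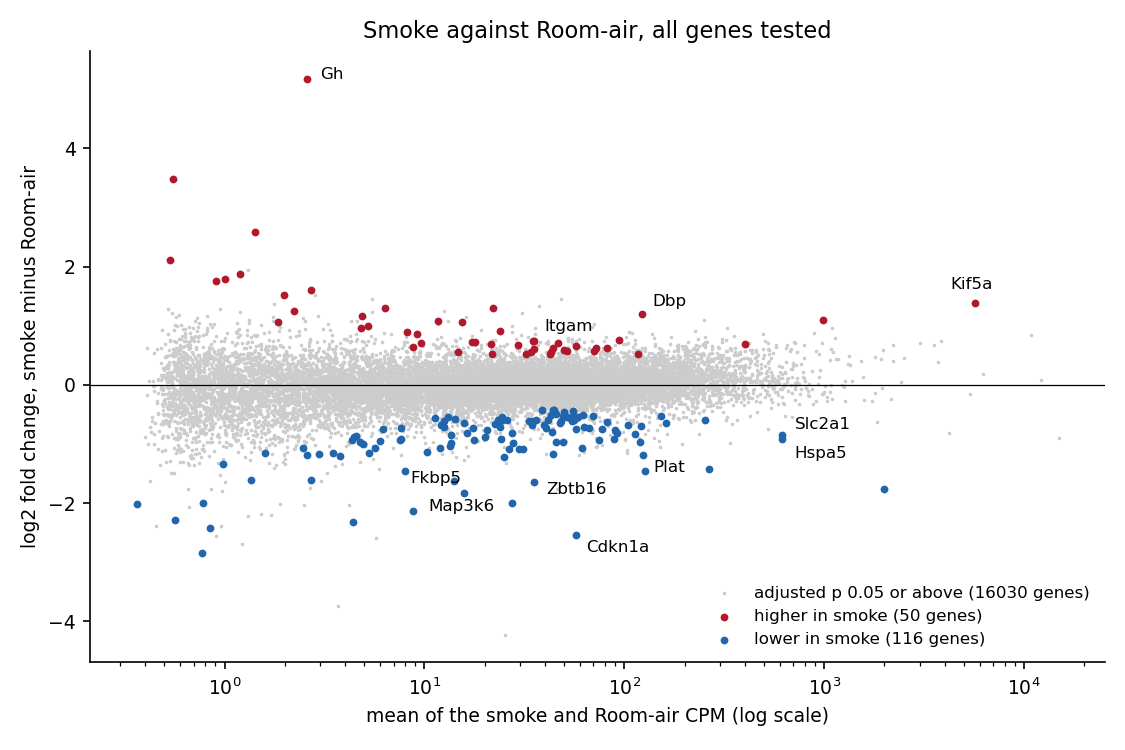
Each point is 1 of the 16196 genes tested, with the mean of its smoke and Room-air CPM on a log axis and the log2 fold change of smoke minus Room-air on the other. The 50 higher genes (red) and the 116 lower genes (blue) have an adjusted p under 0.05, and the named falls reach further from 0 than most named rises, apart from Gh, which is near the low end of expression.

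**Figure D2:**
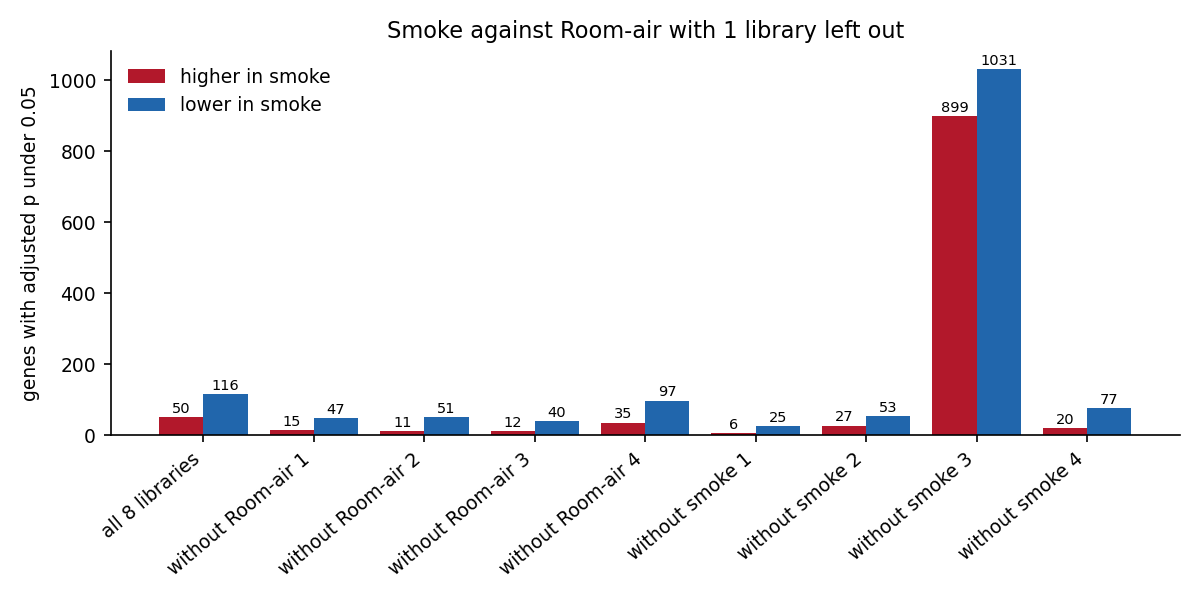
Bars give the number of genes with an adjusted p under 0.05, higher (red) and lower (blue) in smoke than in Room-air, with all 8 libraries and with each library left out. Leaving out smoke 3 gave 899 higher and 1031 lower genes, and every other omission gave fewer genes than the 50 and 116 of the whole set.

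The unexposed groups differed from each other more than smoke differed from either. In 1 fit of the 12 libraries of smoke, Room-air and air, with 15756 genes tested, smoke differed from Room-air in 477 genes (3.03%), of which 254 were higher (1.61%) and 223 lower (1.42%). It differed from air in 425 genes (2.7%), 249 higher (1.58%) and 176 lower (1.12%). Air differed from Room-air in 3310 genes (21%), 1626 higher (10.3%) and 1684 lower (10.7%). These contrasts share libraries. A gene counted as apart from both unexposed groups when smoke lay on the same side of each and the larger of its p-values passed after adjustment. Only 2 genes (0.0127%) did so in this fit, the clock output gene Dbp and the growth hormone gene Gh, both higher in smoke, against 515 genes (3.27%) at an unadjusted p under 0.05. Exposure to smoke and membership of the Room-air group cannot be told apart for the other genes below. The level in air, or smoke against air, is given for many of them but not for all.

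The falls were led by genes that glucocorticoids induce. Of the 25 genes of that list 12 were lower in smoke than in Room-air and none higher, where 0.716% of all genes were lower, and the median log2 fold change over the 25 was −0.96. Smoke lay entirely below Room-air in 15 of the 25, and in 5.35% of all genes. This list and the others of the report were chosen with earlier results of these data known. Their shares are therefore descriptions and not tests. Upstream windows of a pair of these genes are shown because they hold the palindrome to which the receptor binds as a dimer, searched as GNACA and TGTNC with any 3 bases between them, on both strands and printed in capitals. It begins 188 bases before the start of Sgk1 (chr10:21993640-21993939, plus strand, 1 of 6 windows of that gene) and 181 bases before the start of Map3k6 (chr4:133240568-133240867, plus strand). The sequences are RefSeq's, build GRCm38.p6, 250 bases before to 50 after a start, read 5′ to 3′.
Sgk1: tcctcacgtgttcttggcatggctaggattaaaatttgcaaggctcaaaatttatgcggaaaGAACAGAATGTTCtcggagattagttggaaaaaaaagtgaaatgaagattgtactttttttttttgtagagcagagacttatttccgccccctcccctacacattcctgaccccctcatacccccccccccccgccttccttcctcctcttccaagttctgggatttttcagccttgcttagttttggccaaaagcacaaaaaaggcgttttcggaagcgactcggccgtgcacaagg
Map3k6: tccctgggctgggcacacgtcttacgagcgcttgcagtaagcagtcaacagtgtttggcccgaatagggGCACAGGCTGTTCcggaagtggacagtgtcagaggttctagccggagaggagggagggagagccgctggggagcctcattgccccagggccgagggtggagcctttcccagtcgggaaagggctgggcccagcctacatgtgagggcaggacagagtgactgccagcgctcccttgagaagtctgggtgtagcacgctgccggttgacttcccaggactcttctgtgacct
This motif was found in windows of 3 of the 21 listed genes that have one (14.3%), the third being the metallothionein gene Mt1, and of 51 of the 12107 tested genes with a window (0.421%). Among the 116 lower genes 79 had a window and 5 held the motif (6.3%): Kcna5, Map3k6, Sgk1, Tinagl1 and Txnip, of which Kcna5, Tinagl1 and Txnip were named after their values were seen. A match is a description of letters and does not show binding, and most glucocorticoid response elements lie outside such windows.

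Cdkn1a, which encodes the cell cycle inhibitor p21, had 18.01, 15.1, 16.9 and 16.9 CPM in smoke 1 to 4 and 97.6, 93.9, 88.9 and 111 in Room-air 1 to 4. The groups were far apart, with means of 16.7 ± 1.21 and 97.9 ± 9.53 (SD, n = 4 each), a 5.83-fold lower level in smoke (log2 −2.54 ± 0.11 SE, edgeR adjusted p = 1.05e-07). The air libraries, at 22.3 ± 5.75 CPM, were also far below Room-air, and smoke against air gave −0.41 (adjusted p = 0.139). An annotated gene on the opposite strand, AC167363.2, overlaps Cdkn1a.

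Zbtb16, a transcription factor that glucocorticoids induce in many tissues, had 16.8, 13.04, 16.9 and 21.2 CPM in smoke and 40.3, 54.2, 63.1 and 56.1 in Room-air (−1.64 ± 0.16, adjusted p = 6.16e-04). Map3k6, a stress-activated kinase of the MAP kinase cascade, had 13.1, 9.33, 9.34 and 11.9 CPM in smoke and 34.5, 41.5, 59.5 and 39.4 in Room-air (−2.0 ± 0.18, adjusted p = 4.98e-04). In neither gene did the groups overlap, and air was at 17.9 ± 3.51 CPM for Zbtb16 and 7.83 ± 2.43 for Map3k6. Sgk1, the serum and glucocorticoid-regulated kinase, had 58.4, 46.2, 114 and 52.3 CPM in smoke and 169, 166, 171 and 237 in Room-air. Smoke 3 was the highest of its group and still below every Room-air library (−1.46 ± 0.27, adjusted p = 0.0443). Air was at 55.2 ± 9.48 CPM of Sgk1. With 1 library left out, Sgk1 passed in 1 of 8 fits, the one without smoke 3 (−1.82, adjusted p = 6.58e-05). Its highest adjusted p among these fits was 0.129, without smoke 1.

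Other genes of the list were lower too. Tsc22d3, which encodes the anti-inflammatory protein GILZ, had 82.7, 78.2, 71.8 and 92.8 CPM in smoke and 153, 130, 152 and 198 in Room-air (−0.96 ± 0.14, adjusted p = 0.00998). The air libraries, at 59.3 ± 7.75 CPM of Tsc22d3, all lay below smoke, but the difference of 0.46 did not pass (adjusted p = 0.0708). Fkbp5, a chaperone partner that lowers the receptor's affinity for hormone, was at 18.9 ± 2.29 CPM in smoke and 40.3 ± 9.12 in Room-air (−1.09 ± 0.16, adjusted p = 0.0107). Nfkbia, the inhibitor of NF-kB, was at 66.4 ± 8.85 against 116 ± 11.6 CPM (−0.81 ± 0.12, adjusted p = 0.0107). It was at 41.6 ± 7.71 CPM in air, and smoke was higher than air by 0.67 (adjusted p = 0.0187). The remaining members past the threshold were Angptl4, a lipoprotein lipase inhibitor (−2.13), Plin4, a lipid droplet protein (−1.83), Hif3a, a member of the hypoxia-inducible factor family (−1.62), Ddit4, an inhibitor of mTORC1 (−1.06), and Sult1a1, a sulfotransferase (−0.71). Plin4 and Hif3a overlap genes of the opposite strand. The air group held 26.9 ± 3.58 CPM of Ddit4 against 39.6 ± 7.43 in smoke and 82.7 ± 14.9 in Room-air.

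Not all listed genes were lower. Per1, a clock repressor that the hormone also induces, was at 136 ± 5.02 CPM in smoke and 145 ± 23.2 in Room-air (−0.09, adjusted p = 0.707), and at 71.5 ± 12.8 in air. Pdk4, a brake on pyruvate dehydrogenase, stood at −0.03, and the metallothioneins Mt1 and Mt2 at 0.50 and 0.30, none of them past the threshold. Smoke against air gave a list median of 0.13 with 2 of 25 genes higher (1.58% of all genes were) and none lower. Air against Room-air gave −1.20 with 16 lower (10.7% of all genes were lower). Without smoke 1 the list held 6 lower genes, without smoke 3 it held 12 lower and 1 higher (6.12% and 5.33% of all genes), and with the choroid markers as a covariate 10 lower.

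**Figure D3:**
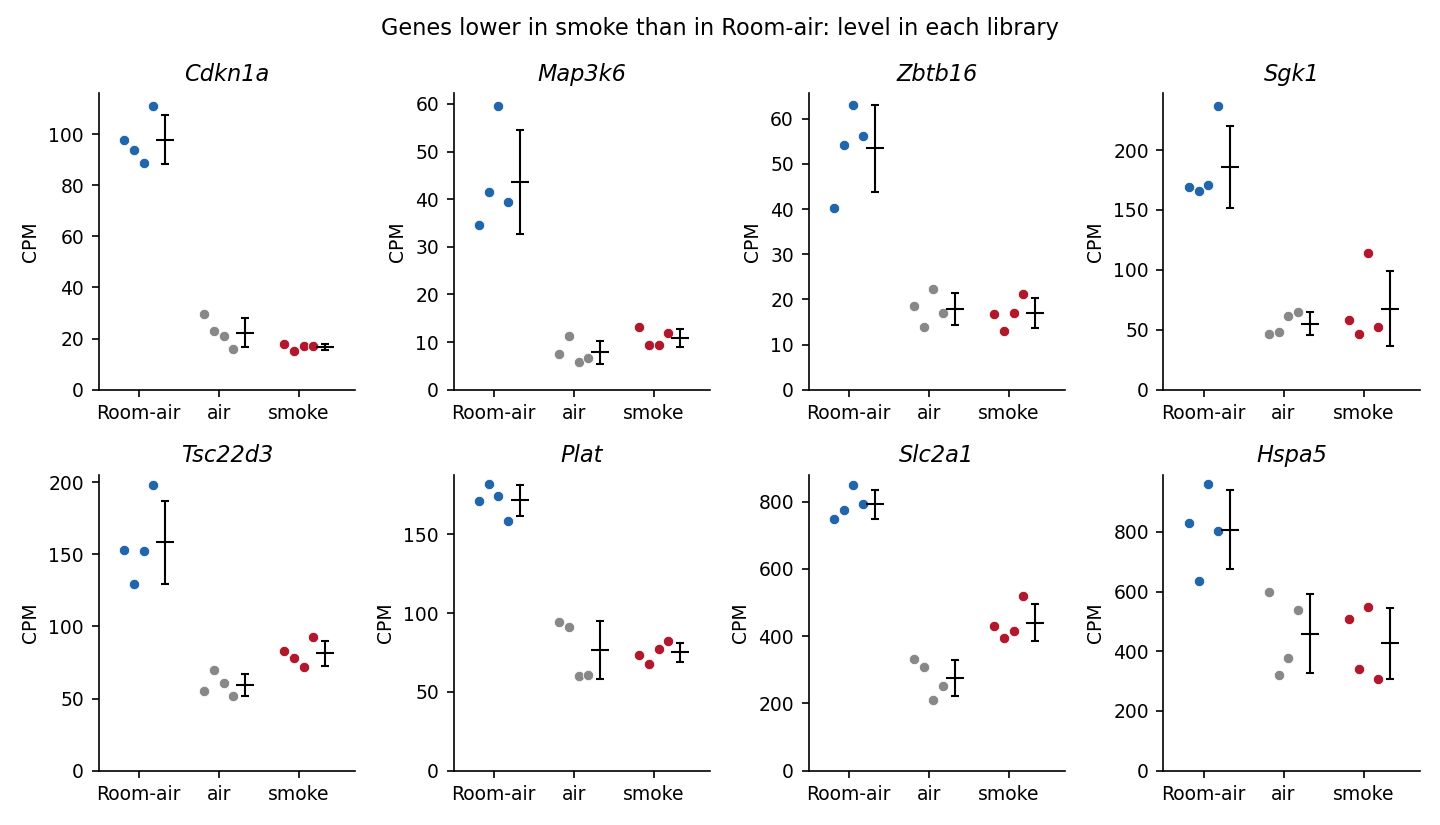
Points are single libraries, with CPM from 0 on each vertical axis and the Room-air (blue), air (grey) and smoke (red) groups side by side. Bars show the mean ± SD of 4 libraries. In all 8 genes every smoke library lies below every Room-air library, and for all but Tsc22d3 and Slc2a1 the smoke and air libraries overlap.

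Chaperones of the endoplasmic reticulum, which fold secreted and membrane proteins and are raised by the unfolded protein response, made up a list of 22 genes. Of these 4 passed, all lower in smoke, where 0.716% of all genes were lower. The log2 fold change was below 0 in 21 of the 22, with a median of −0.49. Hspa5, the main chaperone of the compartment (BiP), had 508, 341, 547 and 309 CPM in smoke and 828, 636, 960 and 804 in Room-air. The highest smoke library lay below the lowest of Room-air, and the difference was −0.92 ± 0.20 (adjusted p = 0.0468), with 459 ± 131 CPM in air. Its upstream window (chr2:34771840-34772139, plus strand) holds the endoplasmic reticulum stress element, searched as CCAAT and CCACG with any 9 bases between them and printed in capitals, from 65 to 47 bases before the start.
Hspa5: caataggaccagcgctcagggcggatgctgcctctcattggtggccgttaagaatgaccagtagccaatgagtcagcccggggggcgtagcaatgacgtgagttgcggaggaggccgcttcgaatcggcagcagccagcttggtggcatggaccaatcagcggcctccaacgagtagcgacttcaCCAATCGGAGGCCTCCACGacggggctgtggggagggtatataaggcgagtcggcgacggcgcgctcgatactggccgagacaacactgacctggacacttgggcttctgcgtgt
This element is bound by NF-Y and ATF6. It was found, on either strand, in 8 of the 19 listed genes with a window (42.1%), among them Hsp90b1, Calr, Pdia6, Dnajc3 and Creld2, and in 20 of the 12107 tested genes with one (0.165%). Of the 116 lower genes 79 had a window, and only Hspa5 held the element (1.3%).

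Sdf2l1, a partner of the Hspa5 chaperone cycle, was at 18.7 ± 4.88 CPM in smoke and 36.9 ± 3.19 in Room-air (−0.98 ± 0.16, adjusted p = 0.0143). Hyou1, which acts as nucleotide exchange factor for Hspa5, was at 127 ± 13.4 against 198 ± 7.21 CPM (−0.64 ± 0.11, adjusted p = 0.0155), and the secreted stress protein Manf at 61.2 ± 15.7 against 116 ± 18.9 (−0.92 ± 0.17, adjusted p = 0.0336). Manf overlaps genes of the opposite strand. Xbp1, the transcription factor spliced by Ern1, stood at −0.50 (adjusted p = 0.0536), Calr at −0.54 (0.0831) and Hsp90b1 at −0.53 (0.145). Sec61b, a subunit of the translocon, stood at 0.02. The list median was −0.46 in air against Room-air, with 15 genes lower (10.7% of all genes were). In smoke against air it was −0.04, with none past the threshold in either direction. The count rose to 16 lower genes without smoke 3 (6.12% of all genes) and dropped to 0 with the choroid markers as a covariate, where the median was −0.27. Over the 8 fits with 1 library left out, Hspa5 passed in 1, Manf in 2, Hyou1 in 5 and Sdf2l1 in 7.

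Among genes of the vessel wall, the tight junction genes did not pass. None of 22 junction genes did in either direction, with a median of −0.18. Cldn5, the main claudin of brain endothelium, had 310, 377, 338 and 380 CPM in smoke and 392, 416, 346 and 248 in Room-air, with overlapping groups (0.00 ± 0.16, adjusted p = 0.994). Ocln, which encodes occludin, was at 46.2 ± 14.2 against 66.9 ± 9.98 CPM (−0.53 ± 0.18, adjusted p = 0.155), and the scaffold gene Tjp1 at 219.5 ± 19.4 against 207 ± 32.0 (0.09 ± 0.13, adjusted p = 0.745). Pecam1, an adhesion molecule of endothelial junctions, stood at −0.56 (adjusted p = 0.111). Without smoke 3, 4 junction genes were lower (18.2%, beside 6.12% of all genes). In air against Room-air 10 of the 22 were lower (10.7% of all genes were), with a median of −0.44.

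Where 0.716% of all genes were lower, 1 of 24 barrier transporters passed, the glucose carrier Slc2a1. It had 430, 396, 416 and 519 CPM in smoke and 748, 776, 849 and 794 in Room-air, with no overlap (−0.85 ± 0.13, adjusted p = 0.0109). The air libraries, at 276 ± 54.6 CPM, lay below both, and smoke was higher than air by 0.68 (adjusted p = 0.0225). Slc2a1 overlaps the predicted genes Gm12867 and Gm12868 on the other strand. The lipid carrier Mfsd2a (−0.30, adjusted p = 0.227) and the efflux pump gene Abcb1a (−0.21, adjusted p = 0.455) did not pass against Room-air, and were higher in smoke than in air, by 0.69 and 0.77 (adjusted p = 0.0129 and 0.0244). In smoke against air 11 of the 24 transporters were higher, where 1.58% of all genes were, with a median of 0.41. The 24 endothelial markers had a median of 0.57 in that contrast, with 5 higher. In air against Room-air their median was −0.74, with 17 lower (10.7% of all genes were). The part of endothelial content in the transporter levels was not tested.

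Plat, which encodes tissue plasminogen activator, the protease that starts fibrinolysis, had 73.3, 67.9, 76.9 and 82.4 CPM in smoke and 171, 182, 174 and 159 in Room-air. The groups were far apart, with means of 75.1 ± 6.10 and 171 ± 9.59 (−1.19 ± 0.10, adjusted p = 2.24e-04). Air was at 76.5 ± 18.7 CPM, and smoke against air gave −0.02 (adjusted p = 0.945). Thbd, thrombomodulin, the endothelial cofactor that turns thrombin toward protein C activation, was at 49.97 ± 4.16 against 83.3 ± 12.9 CPM (−0.74 ± 0.12, adjusted p = 0.0155). These were the 2 of 18 coagulation genes that passed, where 0.716% of all genes were lower. Of 27 matrix genes Plat alone passed, with a list median of −0.40, and 11 were lower without smoke 3 (40.7%, beside 6.12% of all genes).

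Flow- and growth-related genes of endothelium gave single falls, where 0.716% of all genes were lower. Klf2, a transcription factor induced by shear stress, had 64.4, 71.8, 54.6 and 66.8 CPM in smoke and 110, 97.6, 82.7 and 107 in Room-air (−0.62 ± 0.12, adjusted p = 0.0383), and 33.1 ± 12.7 in air. Lrp5, a Wnt co-receptor, stood at −0.68 ± 0.13 (adjusted p = 0.0331) and was the 1 gene of 20 in the Wnt list to pass. The endothelial receptor Notch4 stood at −0.71 ± 0.12 (adjusted p = 0.0155), 1 of 31 growth factor and Notch genes. The smoke libraries lay above those of air in all 3, Klf2 by 0.96 (adjusted p = 0.0266), Lrp5 by 0.79 (0.0192) and Notch4 by 0.66 (0.0679, not past the threshold).

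Other large falls had varied roles. Xdh, xanthine dehydrogenase of purine breakdown, was at 27.2 ± 2.27 CPM in smoke and 61.1 ± 18.96 in Room-air (−1.17 ± 0.18, adjusted p = 0.0138). The air libraries, at 14.8 ± 4.90 CPM of Xdh, all lay below smoke, but the difference of 0.88 did not pass (adjusted p = 0.068). Igsf9b, an adhesion molecule of inhibitory synapses, stood at −1.46, and Slfn5, a Schlafen family member, at −1.21. Cd163, the haemoglobin scavenger receptor of perivascular macrophages, stood at −1.21 (adjusted p = 0.0344) with 2.26 ± 0.65 against 5.33 ± 1.25 CPM. Trp53inp1, a p53-induced gene of autophagy, stood at −0.82. Of 20 p53 targets only Trp53inp1 and Cdkn1a passed, where 0.716% of all genes were lower. Mdm2, a direct p53 target, stood at 0.04 (adjusted p = 0.893). Lars2, mitochondrial leucyl-tRNA synthetase, had 97.0, 145, 110 and 223 CPM in smoke and 495, 340, 408 and 303 in Room-air (−1.42 ± 0.26, adjusted p = 0.0389). The air libraries had 291 to 974 CPM of Lars2, all above smoke (−1.70, adjusted p = 0.0707).

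The clearest rise was that of Dbp, a PAR bZIP transcription factor and direct output of the clock. It had 166, 196, 141 and 176 CPM in smoke 1 to 4, 61.1, 84.7, 76.9 and 74.7 in Room-air 1 to 4 and 81.2, 72.0, 78.4 and 95.3 in air 1 to 4. Every smoke library was above every unexposed library. Smoke was 2.29-fold higher than Room-air (1.19 ± 0.13, adjusted p = 0.0025) and higher than air by 1.05 (adjusted p = 0.00339), and the test against both groups gave an adjusted p of 0.00439. Air and Room-air differed by 0.14 (adjusted p = 0.444). Dbp passed in all 21 alternative fits, among them those without smoke 3 (1.28) and with the choroid covariate (0.99). It overlaps Sphk2 on the opposite strand, which stood at −0.07 (adjusted p = 0.788).

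Of 24 clock genes 2 were higher in smoke than in Room-air and none lower, where 0.309% of all genes were higher, and the median was 0.05. The other was Bhlhe41 (Dec2), a repressor that competes for E-boxes, with 72.9, 76.7, 65.3 and 67.4 CPM in smoke and 44.8, 48.1, 38.5 and 47.1 in Room-air (0.66 ± 0.10, adjusted p = 0.0124). Its level in air was 61.0 ± 2.28 CPM, below all smoke libraries but with a difference of 0.21 that did not pass (adjusted p = 0.206). With the choroid covariate Dbp was the 1 clock gene that passed. Bhlhe41 passed in 7 of the 8 fits with 1 library left out, and it overlaps Gm43909 on the opposite strand. The upstream window of Bhlhe41 (chr6:145865371-145865670, minus strand) holds the E-box CACGTG that the clock activators bind, in capitals, 153 to 148 bases before the start.
Bhlhe41: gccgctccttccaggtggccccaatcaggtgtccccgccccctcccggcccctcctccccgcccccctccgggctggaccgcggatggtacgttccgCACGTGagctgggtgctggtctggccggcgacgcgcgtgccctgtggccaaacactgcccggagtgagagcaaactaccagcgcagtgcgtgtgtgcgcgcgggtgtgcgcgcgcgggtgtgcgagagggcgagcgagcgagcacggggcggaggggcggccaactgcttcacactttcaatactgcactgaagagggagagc
The E-box, a palindrome, was found in 5 of 19 clock genes with a window (26.3%, Per1, Cry1, Tef, Ciart and Bhlhe41) and in 11.192% of all tested genes with one. The E-box was not in the window of Dbp. Among the 50 higher genes 35 had a window and 3 held the E-box (8.6%): Bhlhe41, Garem2 and Tspan4.

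Other members of the loop did not pass against Room-air. Ciart, a repressor of the activators, was at 22.1 ± 5.42 against 12.6 ± 2.60 CPM (0.82 ± 0.18, adjusted p = 0.055), Tef, a relative of Dbp, at 360 ± 31.1 against 256 ± 14.2 (0.50, 0.0591), and the repressor Nr1d2 at 140 ± 11.5 against 102 ± 10.6 (0.46, 0.0591). The smoke libraries of these 3 genes did not overlap those of Room-air. Smoke lay entirely above Room-air in 5 of the 24 clock genes and entirely below in 3, beside 6.01% and 5.35% of all genes. Per2 was at 111 ± 16.7 against 90.3 ± 11.3 CPM (0.30, adjusted p = 0.223), and Arntl, the activator, at 37.5 ± 1.07 against 43.0 ± 1.17 (−0.20, adjusted p = 0.217), with groups that did not overlap. Against air, Per2 was higher in smoke by 0.76 (adjusted p = 0.0111), Ciart by 1.07 (0.00954), Per1 by 0.93 (0.00445) and Nr1d1 by 0.68 (0.0173), while Arntl stood at −0.53 (0.00954). In that contrast 8 clock genes were higher and 1 lower, beside 1.58% and 1.12% of all genes. In air against Room-air 2 were higher and 4 lower, beside 10.3% and 10.7% of all genes.

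**Figure D4:**
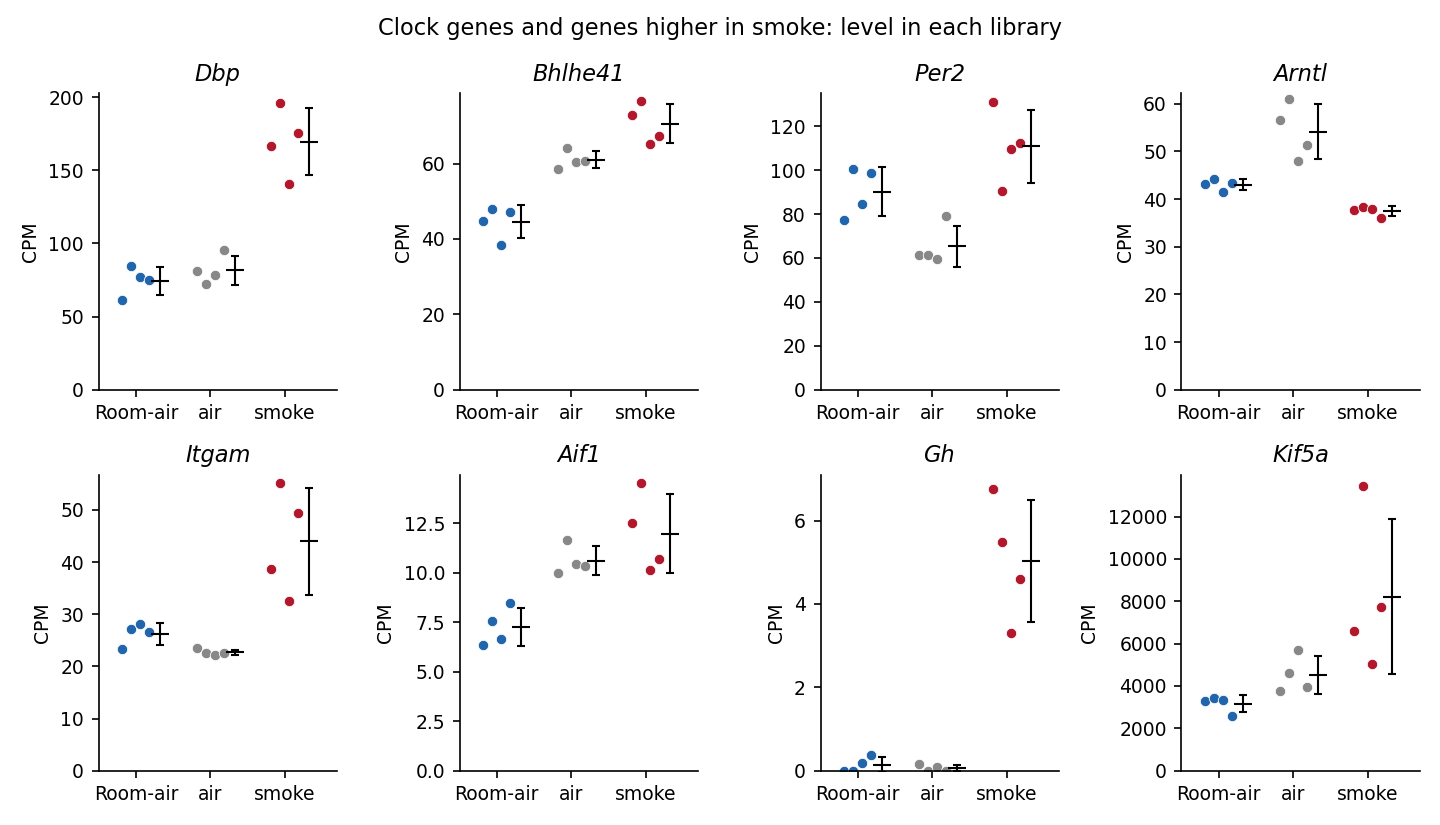
Points are single libraries, with CPM from 0 on each vertical axis and the Room-air (blue), air (grey) and smoke (red) groups side by side, and bars give the mean ± SD of 4 libraries. Dbp, Bhlhe41, Itgam and Gh are above both unexposed groups in every smoke library, Arntl is below both, and the Kif5a libraries of smoke spread from 5051 to 13440 CPM.

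Of 16 microglial markers 2 passed, both higher in smoke, where 0.309% of all genes were higher. The log2 fold change was above 0 in 15, with a median of 0.46, and smoke lay entirely above Room-air in 8 (6.01% of all genes). Itgam (CD11b), an integrin of microglia and other myeloid cells, had 38.7, 55.2, 32.5 and 49.5 CPM in smoke and 23.3, 27.3, 28.1 and 26.6 in Room-air (0.74 ± 0.15, adjusted p = 0.0454). It was higher than in air as well, by 0.95 (adjusted p = 0.00468), though the test against both groups gave 0.136. Aif1 (Iba1), a calcium-binding protein of the same cells, was at 12.0 ± 1.99 against 7.26 ± 0.97 CPM (0.71 ± 0.15, adjusted p = 0.049) and at 10.6 ± 0.73 in air. The receptor Csf1r (0.48, adjusted p = 0.0979) and the purinergic receptor P2ry12 (0.50, 0.0703) did not pass, and Tmem119 stood at −0.11 (0.605). The summed level of the list was 1000 to 1509 CPM in smoke, 815 to 1003 in Room-air and 880 to 938 in air. Without smoke 3, 13 of the 16 were higher (81.2%, beside 5.33% of all genes), and without smoke 1 or with the choroid covariate none passed. Over the 8 fits with 1 library left out, Itgam passed in 1 and Aif1 in 2.

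The other larger rises were in genes of varied roles. Kif5a, a neuronal kinesin heavy chain, had 6606, 13440, 5051 and 7729 CPM in smoke and 3293, 3443, 3343 and 2578 in Room-air (1.38 ± 0.28, adjusted p = 0.0429), with 4512 ± 883 in air. Smoke 2 was the highest library by far. Rapgef4 (EPAC2), a cAMP-activated exchange factor, was at 1341 ± 424 against 628 ± 51.6 CPM (1.10 ± 0.21, adjusted p = 0.0296), and Unc13c, a presynaptic priming protein, at 118 ± 20.4 against 70.1 ± 12.3 (0.75 ± 0.15, adjusted p = 0.0414). Hes5, a Notch effector of neural progenitors and glia, stood at 1.07 and Gli1, a hedgehog effector, at 0.86. Dok6, an adaptor of the Ret receptor, stood at 1.30, Plekho2 at 1.30, Myct1, an endothelial gene, at 0.99, and Garem2 at 0.91. Ighm, the heavy chain of IgM, was at 43.9 ± 8.35 CPM in smoke, 26.2 ± 0.75 in Room-air (0.74 ± 0.13, adjusted p = 0.0204) and 52.8 ± 6.26 in air. No gene of this paragraph passed in smoke against air. Rapgef4, Hes5, Gli1, Dok6 and Garem2 overlap genes of the opposite strand. Summed astrocyte markers were 6027 to 13120 CPM in smoke and 5492 to 6583 in Room-air, oligodendrocyte markers 16620 to 26780 against 12510 to 15240, and neuron markers 7507 to 13130 against 8124 to 9204. No marker of these lists passed, among 14 of astrocytes (median 0.46, 12 above 0), 12 of oligodendrocytes (median 0.09, 6 above 0) and 22 of neurons (median 0.05, 13 above 0). With the neuron markers as a covariate, where 811 genes passed in all, the 10 genes of this paragraph still did. Kif5a was at 1.25 (adjusted p = 0.00737) and Rapgef4 at 1.03 (0.00676). With the choroid markers as a covariate only 7 of all 16196 genes were higher (0.0432%), so not all of the 10 passed. With 1 library left out, Hes5 and Gli1 passed in 7 of 8 fits and Garem2 and Ighm in 4. Kif5a, Rapgef4, Unc13c, Dok6, Plekho2 and Myct1 each passed in 2. The part of astrocyte and oligodendrocyte markers was not tested.

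Gh, the growth hormone gene of the pituitary, was counted 71, 40, 41 and 58 times in smoke 1 to 4, 0, 0, 5 and 10 times in Room-air 1 to 4 and 2, 0, 1 and 0 times in air 1 to 4. In CPM these are 3.30 to 6.77 in smoke and at most 0.37 in the unexposed libraries, which do not overlap (fitted log2 5.18 ± 0.62, adjusted p = 0.00898). The test against both groups gave an adjusted p of 0.0106, and Gh no longer passed it when smoke 2 or any 1 of the 4 air libraries was left out or with the replicate block. Prl, the prolactin gene, the other main hormone of that gland, was counted 11 times in smoke, 1 time in Room-air and not at all in air, too few to test. Pomc, the precursor of corticotropin, which hypothalamic neurons also make, was at 5.89 ± 1.32 CPM in smoke and 3.17 ± 1.83 in Room-air (0.86, adjusted p = 0.209). Summed over the list, pituitary and hypothalamic genes were at 15.1 to 24.5 CPM in smoke, 7.17 to 95.4 in Room-air and 7.92 to 51.9 in air. The part of pituitary tissue in the Gh level was not tested.

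Genes that smoke constituents are known to induce did not pass. None of the 10 testable genes of the aryl hydrocarbon receptor list did in either direction (median −0.10). Cyp1a1 was counted 1 time in the 4 smoke libraries and 12 times in those of Room-air, which is too low to test. Cyp1b1 had 6.01, 5.90, 10.9 and 14.3 CPM in smoke and 14.4, 10.95, 25.7 and 14.8 in Room-air, with overlapping groups (−0.80 ± 0.35, adjusted p = 0.252). The repressor gene Ahrr stood at 0.03 ± 0.25 (adjusted p = 0.967) and Tiparp at −0.21 ± 0.14 (0.444). None of 29 NRF2 and antioxidant genes passed (median 0.13, 23 above 0). Summed over the list, smoke was at 5252 to 8629 CPM, Room-air at 4410 to 4790 and air at 6229 to 8664. Nqo1 was at 8.09 ± 5.31 against 13.5 ± 1.98 CPM (−0.72 ± 0.36, adjusted p = 0.315), Hmox1, heme oxygenase, at 5.51 ± 0.93 against 5.94 ± 1.29 (−0.10 ± 0.19, 0.798), and Nfe2l2, which encodes NRF2, at 37.7 ± 5.29 against 36.6 ± 5.21 (0.04 ± 0.12, 0.878). Without smoke 3, 3 genes of this list were higher and 2 lower (10.3% and 6.9%, beside 5.33% and 6.12% of all genes). Gstm1, a glutathione transferase, stood at 0.77 (adjusted p = 0.138).

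None of 10 leukocyte adhesion genes passed. Icam1, an endothelial ligand of leukocyte integrins, was at 20.2 ± 7.91 against 14.6 ± 6.31 CPM (0.46 ± 0.34, adjusted p = 0.486) and Vcam1 at 99.5 ± 20.4 against 114 ± 41.1 (−0.19 ± 0.23, 0.678). None of the 8 testable nicotinic receptor genes passed, all 8 with a log2 fold change below 0 (median −0.38). Chrna7, the α7 subunit, had 3.24, 3.57, 2.90 and 3.64 CPM in smoke and 5.05, 5.56, 4.83 and 4.59 in Room-air, without overlap (−0.59 ± 0.16, adjusted p = 0.0947), and 3.05 ± 0.46 in air. It was the only 1 of the 8 in which smoke lay entirely below Room-air, as it did in 5.35% of all genes. The immediate early gene Fos (0.71, adjusted p = 0.214) and the heat shock gene Hspa1a (0.72, 0.125) did not pass. Of 29 immediate early genes Klf2 alone passed (lower, where 0.716% of all genes were), and of 29 interferon response genes none did.

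Cytosolic ribosomal protein genes gave small shifts of 1 sign. All 68 had a log2 fold change above 0 (median 0.49), smoke lay entirely above Room-air in 29 (6.01% of all genes), and 1 passed, where 0.309% of all genes were higher. That was Rpl39, a short protein of the large subunit, with 65.9, 67.1, 43.1 and 54.3 CPM in smoke and 32.7, 36.3, 36.1 and 36.7 in Room-air (0.70 ± 0.14, adjusted p = 0.0344). Air was higher still, at 97.6 ± 35.1 CPM, and 50 of the 68 genes were higher in air than in Room-air, where 10.3% of all genes were. Without smoke 3, 56 of the 68 were higher in smoke (82.4%, beside 5.33% of all genes). With the choroid covariate none passed and the median was 0.23. Of 24 cholesterol synthesis genes 2 were higher, the mevalonate pathway enzymes Mvd, at 26.6 ± 4.04 against 16.5 ± 2.64 CPM (0.69 ± 0.14, adjusted p = 0.0459), and Pmvk, at 50.2 ± 6.15 against 35.0 ± 2.17 (0.52 ± 0.11, adjusted p = 0.0454). In 22 of the 24 the log2 fold change was above 0 (median 0.21). None of the 24 passed without smoke 1, without Room-air 4 or with the choroid covariate. Without smoke 3, 6 were higher (25%, beside 5.33% of all genes). Mvd and Pmvk each passed in 1 of the 8 fits with 1 library left out. Neither passed in smoke against air (adjusted p = 0.457 and 0.833). None of 66 nuclear oxidative phosphorylation genes passed (median 0.14, 58 above 0).

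**Figure D5:**
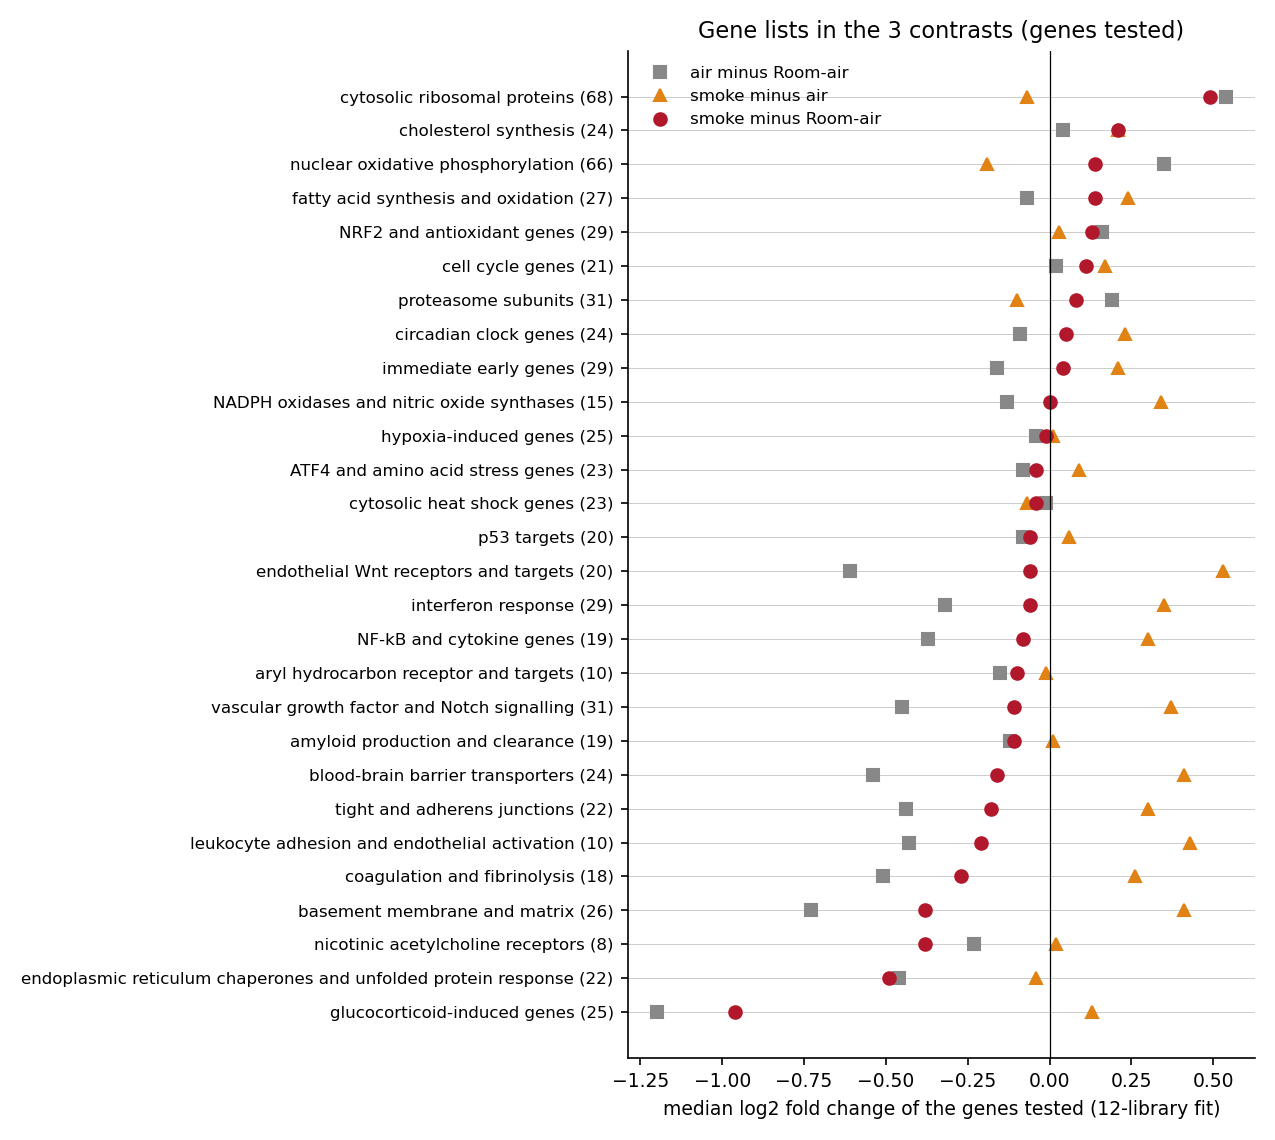
Each row is a gene list with the number of genes tested, and the horizontal axis is the median log2 fold change of its genes in the fit of 12 libraries, for smoke minus Room-air (circles), smoke minus air (triangles) and air minus Room-air (squares), which share libraries. The glucocorticoid-induced list is at −0.96, 0.13 and −1.20 in that order, and the ribosomal protein list at 0.49, −0.07 and 0.54.

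The share of reads assigned to no annotated feature, a measure of intronic and intergenic reads, was 30.8 ± 1.84% in smoke and 30.7 ± 2.27% in Room-air (n = 4 each, exact two-sided permutation p = 0.943, adjusted over 3 comparisons 0.943). It was 35.4 ± 1.63% in air, higher than in Room-air and in smoke (exact permutation p = 0.0286 each, the smallest that 4 against 4 allows, adjusted 0.0429).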

How the data were processed

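The authors deposited raw counts, 1 value for each Ensembl gene. STAR, HTSeq and the build mm10 are named in the submitters' processing notes. Versions and whether counting used strand are not given in the sources used here. Counts of genes that overlap on opposite strands are therefore uncertain. Besides the genes marked above, such an overlap exists for Abcb1a, Arntl, Hspa1a, Icam1, Mvd, Notch4, Slfn5, Tiparp, Tjp1 and Vcam1. Each library listed 39179 genes. The 5 closing lines of HTSeq's summary entered neither library totals nor tests. Reads assigned to no feature made up 28.7 to 33.4% of counted and summary reads in the smoke and Room-air libraries. The 13 protein genes of the mitochondrial genome are at 0 throughout. Names and positions came from GENCODE M21 and upstream windows from RefSeq GRCm38.p6.

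Tests used edgeR 4.0.16 in R 4.3.3 (TMM, filterByExpr, robust glmQLFit, glmQLFTest, two-sided, Benjamini-Hochberg over all genes tested, threshold 0.05), checked on simulated data. Smoke and Room-air shared a fit of 8 libraries, and a fit of 12 added air. CPM are scaled by TMM over the 12 libraries, errors of log2 fold changes are standard errors, and means are given with the SD of 4 libraries. Depths of 7939180 to 30185056 counts set the precision of low genes. Of 991 entries in 45 gene lists 989 matched a gene. Named genes were the 12 largest rises and falls past the threshold with a mean of at least 5 CPM, no overlap of groups and no predicted model, up to 4 members per list with the lowest adjusted p past the threshold, fixed pathway genes, and genes apart from both unexposed groups. Other names complete a list or a count and were chosen after their values were seen. Members and lists were chosen with earlier results of these data known. In the upstream windows 7 motifs were searched on both strands: those printed in the report and TTATGNAA, TCACNCCAC, TGACNNNGC and GCGTG. These last were in 2.627, 1.421, 16.61 and 53.382% of the windows of all genes tested and are not used. Replicates of a group differed by more than sampling noise for every pair.

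Alternatives were other normalisations, DESeq2 1.42.0, other filters, thinning, other sets of libraries and controls, marker covariates, a replicate block and leaving out each library. Results for a few genes that the rule would name are not reported here.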

Additional observations from a re-analysis of the deposited data

Results flagged for a closer look

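Dixon's test of a single library standing apart was applied to 148 groups of 4 smoke or Room-air values (named genes, summed markers, library totals and shares of reads with no feature) and picked out 11. Chance gives about 1 in 20.

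In smoke, Dok6 was at 14.3 CPM in smoke 2 and 7.05 to 7.76 in the other libraries, Myct1 at 5.53 in smoke 1 against 7.36 to 7.41, and Nfe2l2 at 45.6 in smoke 3 against 34.5 to 36.1. Room-air 4 was apart in 3 genes. Sgk1 was at 237 CPM there against 166 to 171 in the others, Nfkbia at 134 against 108 to 113, and Notch4 at 65.2 against 81.2 to 83.0. Room-air 3 was apart in 3 genes, with Xdh at 89.2 CPM against 49.4 to 55.7, Icam1 at 24.0 against 10.9 to 12.6 and Nqo1 at 16.5 against 12.3 to 12.7. In Room-air 1, Rpl39 was at 32.7 CPM against 36.1 to 36.7. Summed pituitary and hypothalamic genes were at 95.4 CPM in Room-air 1 and at 7.17 to 17.9 in the other Room-air libraries. Gh was not counted in Room-air 1.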

How the results depend on the processing

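The 166 genes of smoke against Room-air were 161 with DESeq2's size factors in edgeR, 192 with upper quartile scaling and 118 after thinning every library to the lowest total. They were 942 with DESeq2's Wald test (516 higher), 513 with no filter on low counts (226 higher), 477 with 12 and 1027 with 19 libraries in the fit, 18 with both unexposed groups as control, 54 with the choroid marker covariate, 811 with the neuron marker covariate and 38 in a test against a fold change of 1.2. Leaving out 1 library gave 31 to 1930, the lowest without smoke 1 and the highest without smoke 3. The cause was not tested. With air as control the count was 244 (165 higher). Smoke against air, 425 genes, gave 1065 with DESeq2's Wald test, 235 with the replicate block and 36 to 434 with 1 library left out, the lowest without air 3. Air against Room-air, 3310 genes, gave 1940 to 4017. The 2 genes apart from both unexposed groups became 6 with no filter, 1 with a mean of at least 5 CPM, 1 with the replicate block and 1 to 4 with 1 library left out. Dbp passed in each of these fits, and Gh did not when any air library or smoke 2 was left out, with the replicate block, or where the filter removed it.

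Equal replicate numbers correlated by −0.007 to 0.308 in their deviations from group means, so they were not taken to pair libraries, and the replicate block gave 194 genes for smoke against Room-air. Of the 45 named genes past the threshold all kept their direction in every alternative with Room-air as control, and 9 passed with each library left out: Angptl4, Cdkn1a, Dbp, Gh, Igsf9b, Map3k6, Plat, Tsc22d3 and Zbtb16. With air as control 20 of the 45 changed direction and 3 passed in the same direction. With both unexposed groups as control 3 passed. Dbp and Gh were the 2 that passed in every alternative of this comparison in which they were tested. With the choroid covariate 17 of the 45 passed.

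The log2 fold change changed sign with air as control for Abcb1a 0.78, Ahrr −0.28, Cd163 0.092, Chrna7 0.14, Cyp1b1 0.17, Ddit4 0.57, Fos −0.048, Hif3a 0.14, Hmox1 0.47, Hyou1 0.020, Ighm −0.26, Klf2 0.98, Lrp5 0.80, Map3k6 0.50, Mfsd2a 0.71, Nfkbia 0.68, Notch4 0.68, Nrgn −0.78, Ocln 0.62, Pecam1 0.61, Plin4 0.33, Pmvk −0.039, Rpl39 −0.75, Sgk1 0.32, Slc2a1 0.69, Slfn5 0.79, Thbd 0.26, Tiparp 0.36, Trp53inp1 0.24, Tsc22d3 0.47, Vcam1 0.44, Xdh 0.89. With both unexposed groups as control it did for Abcb1a 0.19, Ahrr −0.12, Hmox1 0.13, Mfsd2a 0.11, Nrgn −0.37, Rpl39 −0.20, Tiparp 0.032, Vcam1 0.082, and with the choroid covariate for Ahrr −0.012, Cldn5 −0.12, Nrgn −0.24, Tjp1 −0.022, Ttr 0.11, Vcam1 0.088. Cldn5, near 0 throughout, was −0.015 with no filter, −0.0064 at a mean of at least 5 CPM, −0.010 with 19 libraries and −0.0033 with the neuron covariate. With 1 library left out, Ahrr ranged from −0.15 to 0.22, Cldn5 ranged from −0.13 to 0.093, Hmox1 ranged from −0.19 to 0.052, Nfe2l2 ranged from −0.050 to 0.15 and Vcam1 ranged from −0.31 to 0.093. The difference in reads of no feature ranged from −0.73 to 1.01 percentage points. Depth limits genes of a few CPM in smoke, whose shallowest library held 7939180 counts, and a miss there does not show equality.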

Other observations

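Genes of vessels and metabolism outside the lists were also lower in smoke than in Room-air, and were chosen here after their values were seen. Igfbp3, a carrier of insulin-like growth factors, had 15.4, 16.2, 15.5 and 19.8 CPM in smoke and 30.1, 26.4, 39.0 and 31.1 in Room-air (−0.92 ± 0.14, edgeR adjusted p = 0.0109). Bcl2l1, which encodes the survival protein BCL-XL, had 78.5, 79.5, 87.0 and 77.3 CPM in smoke and 130, 129, 129 and 125 in Room-air (−0.67 ± 0.09, adjusted p = 0.00722). Txnip, the inhibitor of thioredoxin, had 45.8, 51.6, 59.4 and 74.8 CPM in smoke and 102, 89.8, 101 and 97.1 in Room-air (−0.75 ± 0.14, adjusted p = 0.0251), and it was higher than in air by 0.70 (adjusted p = 0.0318). Txnip overlaps Gm15441 on the other strand.

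A few further genes stood on the same side of both unexposed groups without passing the test of both. Akap5, a scaffold of protein kinase A at synapses, had 29.9, 30.3, 24.2 and 30.9 CPM in smoke, 42.0, 49.0, 40.5 and 42.0 in Room-air and 45.7, 46.8, 49.5 and 39.8 in air. Smoke was lower than Room-air (−0.59 ± 0.11, adjusted p = 0.0296) and lower than air (−0.66, adjusted p = 0.00875). Zfp467, a zinc finger factor, was higher in smoke than in Room-air by 0.61 (adjusted p = 0.0203) and than in air by 0.58 (0.0146). Tspan4, a tetraspanin, was higher by 0.67 (0.0251) and by 1.09 (0.00339), and it overlaps Chid1. The larger p-value adjusted over all genes was 0.134 for Akap5, 0.134 for Zfp467 and 0.224 for Tspan4. With no filter on low counts all 3 passed that test.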
